A study of Mus musculus with 4 samples.

Results

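Igfbp5, C1qtnf3 and Wisp1 encode proteins that cells release, and their messenger RNAs were bound by Argonaute in the cytoplasm of C2C12 myotubes. These 3 genes had 14 Argonaute clusters out of 3548 in the cluster tables of 2 libraries, 13 of them among the 889 myotube clusters and 1 among the 2659 clusters of embryonic stem cells (ESCs). The clusters were taken by gene symbol from all rows of both tables, and the genes were chosen from their cluster and read counts in these tables. Those counts are therefore given as a description, without a test.

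Argonaute proteins carry microRNAs (miRNAs), which pair through their seed, bases 2 to 8, with sites that lie mostly in the 3' untranslated region (3'UTR) of messenger RNAs, and bound messages are usually repressed. Igfbp5 binds insulin-like growth factors outside the cell and modulates their access to the receptor, and it is known to be induced when myoblasts differentiate. C1qtnf3, also called CTRP3, is a secreted protein of the C1q and tumour necrosis factor superfamily. Wisp1, now named Ccn4, is a matrix-associated signalling protein of the CCN family, first described as a target of WNT1 signalling.

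The series mapped the RNAs bound by Argonaute by PAR-CLIP, in which a photoreactive nucleoside in RNA is fixed to the bound protein by ultraviolet irradiation and leaves a T-to-C conversion in the reads. The ESCs carried a doxycycline-inducible HA-Flag-AGO2 transgene, were kept in serum and leukemia inhibitory factor, and received doxycycline at 2.5 ug/ml for 15 h before harvest, and the tagged protein was captured with a Flag antibody. The myotubes came from the C2C12 mouse myoblast line after 2 days of fusion, carried no labelled transgene, and their own Argonaute was captured with a pan-Argonaute affinity peptide. Both were irradiated at 312 nm for 5 min, and only the cytoplasmic libraries were analysed here, at 1 library per group and with no replicate check. The sources used here do not give the share of fused cells, the strain or the sex. The tables held 135023 myotube and 214955 ESC cluster reads, and the smallest called clusters had 5 and 4 reads, so that a gene without a cluster was below a calling limit and not at 0. Of 16 myotube marker genes 7 had a cluster, 7 in myotubes and 3 in ESCs. Of 11 ESC markers 7 had a cluster, 0 in myotubes and 7 in ESCs, and of 10 markers of fibroblasts 0 had one in any library. Of all gene symbols with a cluster in either table, 28.3% had one in myotubes and 85.6% in ESCs. Less RNA per cell and fewer cells of a type cannot be told apart in such bulk libraries, and neither can binding and the level of the RNA, which was not measured here. Differences of cell type cannot be told apart from those of transgenic or endogenous Argonaute and of capture reagent.

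The clusters that carry a miRNA site are shown first, because they are the only member clusters that could be tied to a miRNA family by sequence. Sequences run 5' to 3' on the transcript strand, coordinates are on mm10, and capitals mark the site, the 7 bases complementary to miRNA bases 2 to 8.
Igfbp5, miR-203 site, chr1:72862278-72862299, minus strand: tcactCATTTCAtctcatttag
Igfbp5, miR-193 site, chr1:72859972-72860001, minus strand, the last 30 bases of the cluster: acttcaatatatcttaGGCCAGTatcctag
Wisp1, miR-27 site, chr15:66922937-66922963, plus strand: tacttatctattttcaaACTGTGAttg

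The mature miRNAs of these families, from RefSeq on GRCm38.p6, are shown with the seed in capitals.
mmu-miR-203-3p, on chromosome 12: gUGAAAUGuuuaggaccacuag
mmu-miR-193a-3p, on chromosome 11: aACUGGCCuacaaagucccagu
mmu-miR-193b-3p, on chromosome 16: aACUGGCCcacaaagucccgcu
mmu-miR-27a-3p, on chromosome 8: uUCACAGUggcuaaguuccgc
mmu-miR-27b-3p, on chromosome 13: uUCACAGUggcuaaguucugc
The miR-193 pair share a seed, as do the miR-27 pair, so the site alone does not tell their members apart.

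Igfbp5 had Argonaute clusters at 7 separate places in its 3'UTR in myotubes. The gene lies on the minus strand of chromosome 1, from 72858065 to 72874865 in RefSeq, and 7 of its 8 myotube clusters were annotated to the 3'UTR and 1 to the 5'UTR. From 5' to 3' the 7 clusters of the 3'UTR held 12, 8, 8, 16, 10, 7 and 6 reads. They spread over 4301 nt, from chr1:72862278-72862299 to chr1:72857999-72858026, and no position along the UTR dominated. The cluster with the most reads lay at chr1:72859780-72859804, number 4 of the 7 in that order. The last one, with 6 reads, lay 38 nt beyond the end of the RefSeq gene, although the authors' table places it in the 3'UTR by its HAVANA annotation.

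C1qtnf3 had fewer clusters, and its reads gathered in a pair of them. The gene lies on the plus strand of chromosome 15 from 10952119 to 10980162, and all 4 of its myotube clusters were in the 3'UTR, over 790 nt. They held 24, 8, 26 and 6 reads from 5' to 3', so clusters 1 and 3 stood above their neighbours. Cluster 1, chr15:10979001-10979025, had more reads than 93.7% of the 363 myotube 3'UTR clusters, and cluster 3, chr15:10979437-10979458, had more than 94.2%. These leading clusters are shown because they hold most of the reads of the gene, and none of the miRNA sites searched was found in them.
C1qtnf3, cluster 1: cattttcatcactcttctctacatg
C1qtnf3, cluster 3: atataaacttttctcccatctg
Clusters 2 and 4, at chr15:10979278-10979301 and chr15:10979763-10979790, had no site either.

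Wisp1 had a single cluster, with 14 reads, in its 3'UTR at chr15:66922937-66922963, which ended 238 nt before the end of the RefSeq gene (chromosome 15, 66891369 to 66923201, listed there as Ccn4). Neither C1qtnf3 nor Wisp1 had a cluster in ESCs. Of all 483 gene symbols with a myotube cluster, 237 also had an ESC cluster, so the lack of one was common.

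**Figure D1:**
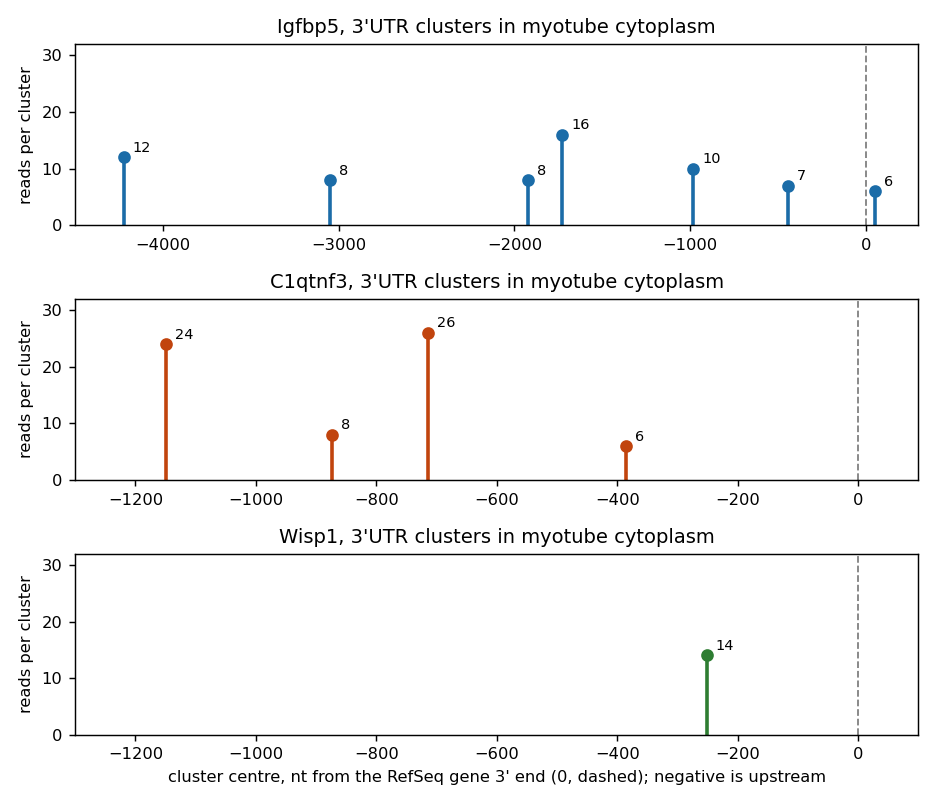
Reads per 3'UTR cluster (y axis) against the distance of the cluster centre from the 3' end of the RefSeq gene in nt (x axis, 0 at the dashed line), for Igfbp5, C1qtnf3 and Wisp1 in the myotube library. Each stem is 1 cluster with its read count. The 7 Igfbp5 clusters hold 6 to 16 reads over 4301 nt, and the 4 C1qtnf3 clusters hold 6 to 26 reads over 790 nt.

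The spacing differed accordingly. Gaps between neighbouring Igfbp5 clusters in the 3'UTR were 1153, 1093, 167, 723, 516 and 467 nt from 5' to 3', with a median of 619.5 nt. Those of C1qtnf3 were 252, 135 and 304 nt, with a median of 252 nt. Over all 88 gaps in 56 genes of the myotube library the median was 463.5 nt (range 7 to 4040), and all 3 C1qtnf3 gaps were under 500 nt, as were 52.3% of all gaps. A gap depends on the length of the UTR and on which clusters passed the caller, so it does not measure the distance between bound proteins on 1 molecule.

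The number of clusters set Igfbp5 and C1qtnf3 apart from most genes of the myotube library, which is how they were chosen. Of 275 genes with a 3'UTR cluster in myotubes, 219 had 1 cluster, as Wisp1 did. At least 4 were found in 5 genes (1.82%), C1qtnf3 among them, and at least 7 in 3 genes (1.09%), which were Igfbp5, the sialomucin gene Cd164 and Qk, an RNA-binding regulator of splicing. Cd164 held 88 reads in its 7 clusters, Igfbp5 67 and Qk 56. Cd164 and Qk also had 3'UTR clusters in ESCs, 3 with 33 reads and 7 with 80 reads, whereas Igfbp5 had 0 there.

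**Figure D2:**
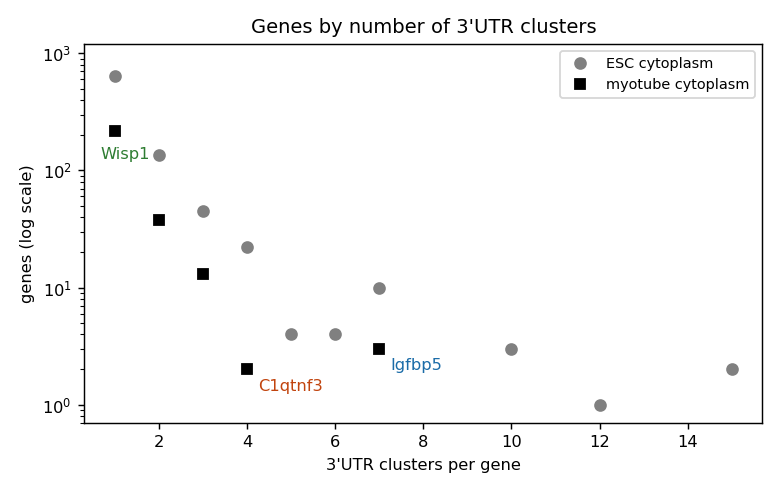
Number of genes (y axis, log scale) with a given number of 3'UTR clusters (x axis) in the myotube library (black squares) and the ESC library (grey circles). Igfbp5 is 1 of 3 myotube genes with 7 clusters, C1qtnf3 is 1 of 2 with 4, and Wisp1 is among the 219 with 1.

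Summed over its clusters, Igfbp5 had 81 myotube reads, or 60.0 per 100000 library reads (exact Clopper-Pearson 95% interval 47.6 to 74.6). C1qtnf3 had 64 reads, or 47.4 per 100000 (interval 36.5 to 60.5), and Wisp1 14 reads, or 10.4 per 100000 (interval 5.67 to 17.4). The intervals of Igfbp5 and C1qtnf3 overlapped, and that of Wisp1 lay below both. These intervals cover counting error alone, because amplified reads that carry no molecular identifier cannot be taken as separate molecules. Among 331 nuclear genes with reads on messenger RNA in myotubes, Igfbp5 stood at rank 5, C1qtnf3 at rank 8 and Wisp1 at rank 86. Per nt of called cluster the order was another, with 0.646 reads per nt over 99 nt for C1qtnf3, 0.519 over 27 nt for Wisp1 and 0.393 over the 8 clusters of Igfbp5. Distinct read sequences numbered 38 for Igfbp5, 29 for C1qtnf3 and 7 for Wisp1, between 45.3 and 50.0 per 100 reads, against 38.4 per 100 reads over all myotube 3'UTR clusters.

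Igfbp5 is the only one of these genes with a cluster in ESCs, and that cluster lay in the 5'UTR, where myotubes had one too. Its ESC cluster held 7 reads, or 3.26 per 100000 (interval 1.31 to 6.71), and lay at chr1:72874340-72874363, 502 nt from the start of the RefSeq gene. The myotube 5'UTR cluster held 14 reads at chr1:72874501-72874524, 341 nt from that start, and 137 nt lay between these clusters. Each had 4 converted reads and 2 conversion positions, the lowest numbers of any called cluster in its library. The ESC side of every Igfbp5 ratio rests on the ESC cluster alone. The 67 reads in called 3'UTR clusters were all from myotubes, and binding of the 3'UTR below the calling limit in ESCs cannot be seen in these tables. Over all clusters the log2 ratio of read share, myotube over ESC, was 4.20 (exact conditional binomial interval 3.10 to 5.56), the highest of the 237 genes with a cluster in both tables. A ratio of at least 2-fold in that direction was found in 64 of these genes (27%) and in the other direction in 63 (26.6%). With only the 5'UTR clusters, a choice made after seeing the data, the log2 ratio was 1.67 (interval 0.27 to 3.22).

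The denominator sets the size of that ratio. Over messenger RNA reads outside the mitochondria the median of all 237 genes moved by 1.54 on the log2 scale, 157 genes (66.2%) passed 2-fold toward myotubes and 15 (6.33%) the other way, and Igfbp5 stood at 5.74, or at 3.21 with only its 5'UTR clusters. A change of denominator moves every gene and the median of the genes by the same amount. Relative to that median, Igfbp5 by construction stood 4.16 higher under each of the 4 denominators, and 1.63 higher with only the 5'UTR. The interval of the 5'UTR ratio included 0 under 2 of the 4 denominators, at -0.21 to 2.74 over all messenger RNA reads and -0.04 to 2.92 over the reads of the genes common to both tables.

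**Figure D3:**
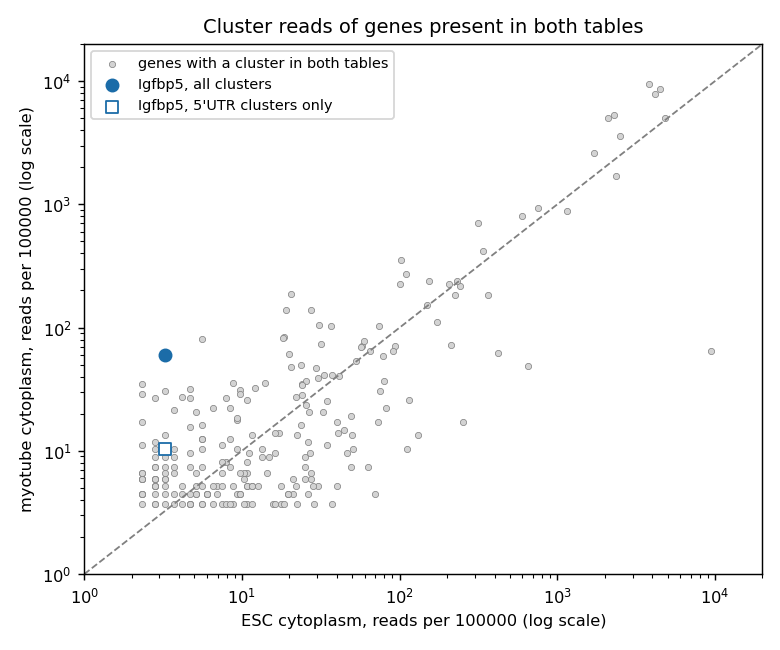
Cluster reads per 100000 library reads in ESC cytoplasm (x axis) and myotube cytoplasm (y axis), both on log scales, for the 237 genes with a cluster in both tables. The dashed line marks equal shares. Igfbp5 with all clusters (filled circle) lies at 3.26 and 60.0, and with only its 5'UTR clusters (open square) at 3.26 and 10.4.

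The 5'UTR clusters of Igfbp5 did not overlap but shared a word of 6 bases. Of the 363 myotube 3'UTR clusters of all genes, 80 (22.0%) overlapped an ESC cluster. That share includes genes without an ESC cluster, and the share among 5'UTR clusters was not counted, so it is no like background for this pair. In the Igfbp5 5'UTR, C and T made up 95.8% of the myotube cluster and 83.3% of the ESC cluster. The medians over all 5'UTR clusters of these libraries were 82.8% and 75.0%. Both Igfbp5 5'UTR clusters held the word TTCACC, which was also found in 2 of the 7 myotube clusters of the 3'UTR. They are shown with that word in capitals.
Igfbp5 5'UTR, myotubes, chr1:72874501-72874524, minus strand: ttttttcTTCACCtcctccctttt
Igfbp5 5'UTR, ESCs, chr1:72874340-72874363, minus strand: cctctttttTTCACCcccaacctg
Igfbp5 3'UTR, chr1:72859780-72859804, minus strand: ctctcTTCACCccacaacttactag
Igfbp5 3'UTR, chr1:72858494-72858517, minus strand: catccaTTCACCcccacttctctg
TTCACC was the most frequent of 155 words of 6 bases in the 9 Igfbp5 clusters of both tables, so it was picked for its count. It was present, on the transcript strand, in 9 of 363 myotube 3'UTR clusters (2.48%) and in 22 of 1325 ESC 3'UTR clusters (1.66%). The 9 include the 2 of Igfbp5. The share among 5'UTR clusters, which were richer in C and T by their medians, was not counted. None of the 4 Igfbp5 clusters with this word held a site of the miRNA families searched, also when a match of 6 bases (miRNA bases 2 to 7) was enough, and nothing about a bound factor follows from it.

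The base composition of the 3'UTR clusters spread on both sides of the median of their class. C and T together made up 57.1% to 82.6% of the Igfbp5 3'UTR clusters (median 72.0%), 53.6% to 76.0% of those of C1qtnf3 and 63.0% of that of Wisp1. The median over all myotube 3'UTR clusters was 66.7%. RNase T1, which cuts after G, trimmed the RNA, and 11 of the 12 myotube 3'UTR clusters of these genes ended in G, against 83.7% of all such clusters. No G inside the cluster was found in 6 of 7 Igfbp5 clusters, 3 of 4 of C1qtnf3 and 0 of 1 of Wisp1, against 83.2% of all. The Igfbp5 cluster with the miR-193 site and the Wisp1 cluster with the miR-27 site each kept inner Gs, 3 and 2, all of them inside the sites.

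**Figure D4:**
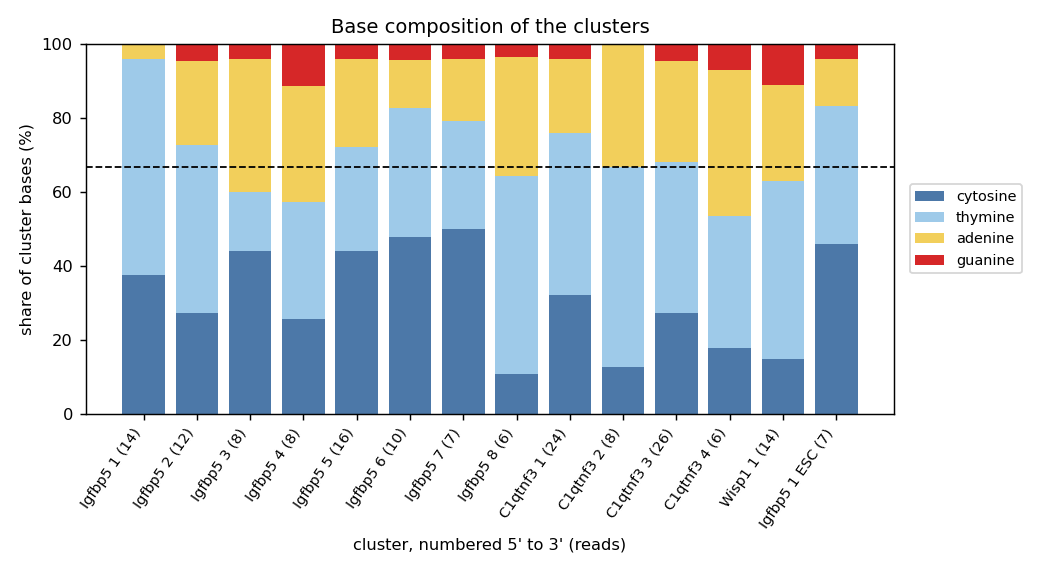
Base composition in percent (y axis) of each cluster of the 3 genes (x axis, numbered 5' to 3', reads in brackets), with the ESC cluster last. The dashed line is the median share of C and T over all myotube 3'UTR clusters, 66.7%. The 5'UTR clusters of Igfbp5 (first and last bars) reach 95.8% and 83.3% C and T.

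Crosslinking was read from the reads with a T-to-C conversion. In myotubes 46 of 67 reads in the Igfbp5 3'UTR were converted (68.7%, exact Clopper-Pearson interval 56.2 to 79.4), 47 of 64 in C1qtnf3 (73.4%, interval 60.9 to 83.7) and 11 of 14 in Wisp1 (78.6%, interval 49.2 to 95.3). The intervals of the 3 genes overlapped. Pooled over all myotube 3'UTR clusters, 81.4% of reads were converted, which lies above the Igfbp5 interval and within those of C1qtnf3 and Wisp1. These intervals count each read as separate, although the 67 Igfbp5 reads held 33 distinct sequences. They are therefore too narrow to serve as a test against the pooled share.

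By cluster, the share in the 3'UTR ran from 50.0% to 87.5% in Igfbp5 and from 57.7% to 100% in C1qtnf3. All 7 Igfbp5 clusters, and 11 of the 12 of the 3 genes, lay below the median of 3'UTR clusters, 90.0%. The median differed with the read count, and every called cluster had at least 4 converted reads, which sets a lower limit on the share in small clusters; its part in these values was not tested. Among 105 myotube 3'UTR clusters with 10 to 26 reads the median was 71.4%, and 3 of the 6 member clusters of that size were below it. Among 168 clusters with 6 to 9 reads the median was 100%, and 5 of the 6 member clusters of that size were below it.

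The myotube 5'UTR cluster of Igfbp5 had the lowest converted share of the member clusters. Only 4 of its 14 myotube reads carried a conversion (28.6%, interval 8.39 to 58.1), although it held 14 Ts, and 17 of the 889 myotube clusters (1.91%) had a lower share. Of the 9 myotube 5'UTR clusters none had a lower share, and their median was 71.4%. No called cluster had fewer than 4 converted reads, so a called cluster of 14 reads could hardly show a lower share. The 9 clusters had a median of 7 reads, and smaller clusters cannot reach so low a share with 4 converted reads. The low rank of this cluster therefore says little about its crosslinking. The ESC 5'UTR cluster had 4 converted reads of 7 (57.1%, interval 18.4 to 90.1), beside a median of 64.3% for the 39 ESC 5'UTR clusters. It too had the fewest converted reads of any called cluster, and those 39 clusters had a median of 12 reads, so the shares are not on like terms. Both intervals of the Igfbp5 5'UTR are wide and overlap. Counted per T covered by a read, 2.68% of events in the myotube 5'UTR cluster were conversions, against 8.81% over the Igfbp5 3'UTR, 7.25% over C1qtnf3 and 7.14% in Wisp1. Pooled over all myotube 3'UTR clusters the share was 9.13%. Cluster 2 of C1qtnf3 had 7 converted reads but 4 conversion events, so its deposited events leave out some of its reads.

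**Figure D5:**
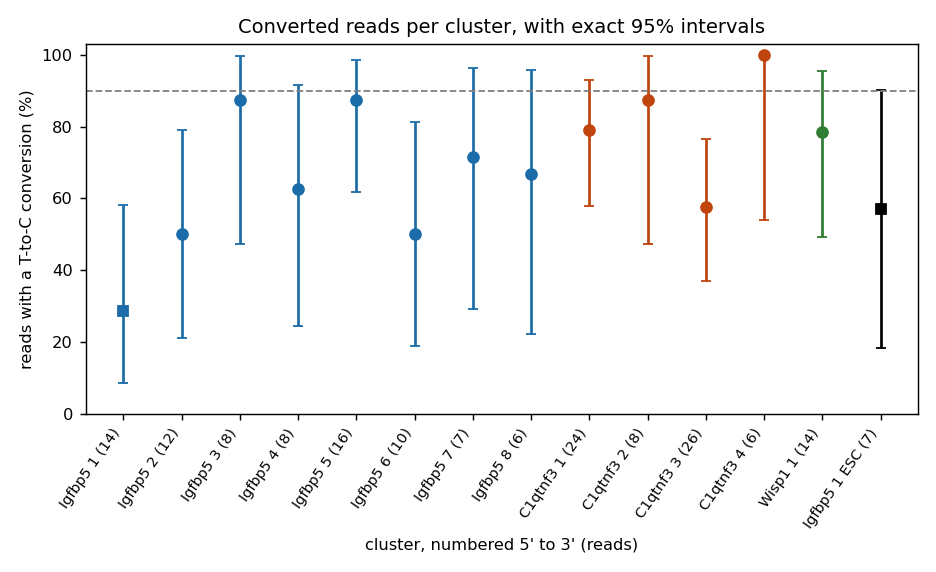
Percent of reads with a T-to-C conversion (y axis) in each cluster (x axis, numbered 5' to 3', reads in brackets), with exact Clopper-Pearson 95% intervals. Squares are 5'UTR clusters, black is the ESC cluster, and the dashed line is the median of all myotube 3'UTR clusters, 90.0%. The myotube 5'UTR cluster of Igfbp5 is lowest at 28.6%, with 4 converted reads, the fewest of any called cluster.

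Sites for miRNAs were few. Of 62 families listed, mature sequences were at hand for 55, and their 57 sites were searched on the transcript strand within the clusters. In myotubes 3 of the 12 member clusters in the 3'UTR held a site (25%, interval 5.49 to 57.2), against 49 of 363 clusters in all (13.5%, interval 10.2 to 17.5). The intervals overlapped. The other 10 of the 13 member clusters, among them all 4 of C1qtnf3 and the 5'UTR cluster of Igfbp5, held no such site. The search stopped at the ends of each cluster.

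The miR-193 site of Igfbp5 was the fullest match. It was followed by an A, which makes it an 8mer, and lay at chr1:72859979-72859985 in a cluster with 8 reads, 62.5% of them converted. GGCCAGT was found in no other myotube cluster and in 1 of 1325 ESC 3'UTR clusters. The site began 8 nt downstream of the position that the authors' table gives as the mode of the cluster. The miR-203 site of Igfbp5, at chr1:72862288-72862294, began 16 nt upstream of the mode in a cluster with 12 reads, 50.0% of them converted. The mode of that cluster was its last base, a G, so any site in it could only lie upstream. CATTTCA was present in 7 of 363 myotube 3'UTR clusters (1.93%, interval 0.779 to 3.93) and in 18 of 1325 in ESCs (1.36%, interval 0.807 to 2.14), and these intervals overlapped.

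The miR-27 site of Wisp1, at chr15:66922954-66922960, began 9 nt upstream of the mode, in a cluster with 14 reads. Here too the mode was the last base of the cluster, a G, so this distance only measures to the cluster end. The letters of the site, ACTGTGA, are also a shorter match to miR-128-3p (bases 2 to 7 and an A), so they do not tell these miRNAs apart. They were found in 6 of 363 myotube 3'UTR clusters (1.65%, interval 0.61 to 3.56) and in 1 of 1325 in ESCs (0.075%, interval 0.0019 to 0.42). Of the 6 myotube genes, Tnpo1 with 41 reads and Tmbim6 with 28 stood above Wisp1, and Dram2 with 10, Appbp2 with 8 and Ssr3 with 5 below it. At the miRNA itself, a cluster with 891 reads was called at miR-27b-3p in ESCs and none in myotubes. A miRNA without a called cluster was below a calling limit, so its level does not follow from this. No cluster overlapped miR-193a-3p, miR-193b-3p or miR-203-3p by 15 nt or more in either library. Of the 21 mature miRNAs with such a cluster in myotubes, led by miR-322-5p with 1776 reads, 0 had a site in a cluster of these genes. Such sites were rare in general, since 17 of the 21 had none in any of the 363 myotube 3'UTR clusters and the most for any of them was 5 clusters, so this count says nothing particular about the 3 genes.

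The other genes of the pathways were counted by whether they had a cluster. Over all 1707 gene symbols with a cluster in either table, 483 (28.3%) had a myotube cluster and 1461 (85.6%) an ESC cluster. Of 32 genes of the insulin-like growth factor axis 7 had a cluster, 2 in myotubes and 6 in ESCs, shares of the 7 close to those over all symbols. Igfbp5, which was chosen for its clusters, is counted in both libraries, so nothing about the axis follows from these shares. Beside Igfbp5 the myotube gene was Igf2bp3, an RNA-binding protein, with 5 reads in coding sequence. Among the ESC genes were Igf2bp1 (36 reads), the transcription factor Foxo3 (13), the scavenger receptor Igf2r (9), Igfbp5 (7) and the kinase Akt2 (5). None of the other binding proteins of the axis, Igfbp1 to Igfbp4, Igfbp6 and Igfbp7, had a cluster.

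C1qtnf3 was the only one of 18 C1q and tumour necrosis factor related genes with a cluster, and Wisp1 the only one of 6 CCN genes. Of 25 genes of WNT and beta-catenin signalling 5 had a cluster, 1 in myotubes and 4 in ESCs. The myotube gene was the kinase Gsk3b, with 18 reads in 2 clusters. Among the ESC genes were beta-catenin itself, Ctnnb1, with 62 reads and the secreted inhibitor Sfrp1 with 23 reads. Of all symbols with a cluster in either table, 28.3% had one in myotubes and 85.6% in ESCs. Of 25 other secreted muscle factors 5 had a cluster, 4 in myotubes and 2 in ESCs. In myotubes these were Fstl1 (15 reads), the angiogenic factor Vegfa (11), the irisin precursor Fndc5 (7) and the myostatin antagonist follistatin, Fst (5), all with fewer reads than C1qtnf3 or Igfbp5 and, apart from Fstl1, fewer than Wisp1.

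The genes most like each member were found over the 2 libraries, by the Euclidean distance in log2 of reads per 100000 plus 1, among 1029 genes with a 3'UTR cluster, with an uncalled gene set to 0. For Igfbp5 the nearest were the myosin light chain gene Mylpf (distance 0.76, 110 myotube and 12 ESC reads) and the tropomyosin gene Tpm2 (0.85, 47 and 5 reads). For C1qtnf3 they were Serinc3 (0.09, 60 myotube reads), the smooth muscle actin gene Acta2 (0.19, 56 reads) and Ppp2cb (0.26, 77 reads), with no ESC cluster called for any of them. Itm2b, Sdc2 and Wls, a carrier for WNT secretion, had the same 14 myotube reads as Wisp1 and no ESC cluster, at a distance of 0. With 2 values per gene, likeness here means only a like read share in each library.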

How the data were processed

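The authors deposited 1 table of clusters per library, and the worksheet name gave the sample. Reads, distinct sequences, conversions and conversion positions were used as raw counts per cluster, as deposited. The authors also deposited fractions, 0 to 1, for conversion and for a final G, and a mode score. The build was mm10 and reads were demultiplexed with bcl2fastq 2.17.1, per the submitters' processing notes. The sources used here do not give the aligner, the caller or any pooling. Blank lines numbered 4 for ESCs and 1 for myotubes.

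Shares were recomputed from the counts with exact 95% intervals (Python 3.11.15, pandas 2.3.3, scipy 1.17.1). Ratios were given only for genes with a cluster in both tables. Messenger RNA classes were 3'UTR, 5'UTR, coding sequence, start and stop codon. With 1 library per group no test between groups was made. The intervals and the site search were tested on simulated data. Distances to gene ends used RefSeq GRCm38.p6, the same assembly as mm10, and miRNA sequences came from RefSeq too. Families without a sequence there (miR-122, miR-124, miR-143, miR-145, miR-150, miR-378 and miR-486) were not searched. Wisp1 matched RefSeq as Ccn4.

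The members and the gene lists were chosen with earlier results of these data known. The named genes were the members, the list genes with a cluster, the 3 nearest genes by read share, the genes with as many 3'UTR clusters as the leading member, and those sharing the miR-27 site, added later. Some genes that this rule names are not reported here.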

Additional observations from a re-analysis of the deposited data

How the results depend on the processing

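Of 37 alternative values, 19 stayed within 1.5 times the count or inside the 95% interval given, and 18 moved, without a change of direction. With at least 10 reads per cluster the myotube count fell to 4 for Igfbp5 and 2 for C1qtnf3, and with at least 3 conversion positions it was 5 for Igfbp5. The read shares moved with their denominator by construction. Igfbp5 made up 0.165% of messenger RNA reads, 1.68% of those outside the mitochondria, 1.70% of 3'UTR reads and 0.242% of distinct sequences. The same shares were 0.130%, 1.33%, 1.62% and 0.185% for C1qtnf3, and 0.0285%, 0.290%, 0.355% and 0.0446% for Wisp1. The log2 ratio of Igfbp5 was 5.74 over messenger RNA reads outside the mitochondria and 1.67 with 5'UTR clusters, and the former put 157 genes past 2-fold. The number of clusters with a miRNA site and the converted shares stayed the same or inside their intervals under every alternative run. Extension of the clusters by 15 nt and a ratio over the 3'UTR alone were not run, because no genome was at hand and Igfbp5 had no 3'UTR cluster in ESCs. No paired analysis was possible because each group had 1 library, and no library could be left out. The clusters held 6 to 26 reads, and at that depth shares per cluster have wide intervals.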

Other observations

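The deposited share of reads ending in G depended on the strand. All 9 Igfbp5 clusters, on the minus strand, were listed at 0%, although 8 of the 9 cluster sequences end in G. The C1qtnf3 and Wisp1 clusters, on the plus strand, were listed at 50.0% to 100%. In the myotube table as a whole, clusters whose sequence ends in G had a median of 94.6% on the plus strand (341 clusters) and of 0% on the minus strand (293 clusters, 264 of them at 0). In the ESC table the medians were 100% (896 clusters) and 0% (1069 clusters, 1011 of them at 0). This column was therefore not used for a comparison between the genes, and the cause was not tested.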
